A study of Homo sapiens with 12 samples.

Results

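IRF1 and 9 genes of antigen processing and presentation (B2M, TAP1, TAPBP, PSMB8, PSMB9, HLA-E, HLA-DRA, CD74 and ERAP1) were followed in H1975, an established human lung adenocarcinoma line, under erlotinib and quinacrine. The 10 genes were taken by name, from the array rows annotated with 1 gene symbol, out of 22395 genes named in this way, and a gene with several rows was represented by the row of highest mean. Levels were read on 12 arrays of the Affymetrix Human Gene 2.1 ST type, whose probes are spread along each transcript, and are given as the deposited log2 values. Cells were given 1 µM erlotinib together with 3 µM quinacrine (combination, 4 arrays at 6, 12, 24 and 48 h), 3 µM quinacrine alone (3 arrays at 6, 12 and 24 h) or 1 µM erlotinib alone (4 arrays at 6, 12, 24 and 48 h), and 1 array came from untreated cells with no time. All cells, untreated ones included, carry EGFR with the changes L858R and T790M, and all arrays come from this 1 line. Each treatment and time had 1 array, so n counts time points, and nothing in the labels says whether arrays came from separate cultures. A p-value here speaks to the scatter of the fitted arrays around a model, not to replicate error. That scatter may be technical. Comparisons of treated groups and slopes used the 11 treated arrays, and comparisons with the untreated array used all 12.

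Nucleated cells cut proteins with the proteasome and show the peptides on MHC class I. Interferon replaces proteasome subunits with the immune forms PSMB8 and PSMB9, the transporter TAP1 carries peptides into the endoplasmic reticulum, TAPBP (tapasin) bridges the transporter and the class I molecule, ERAP1 trims the peptide ends, and B2M is the light chain that every class I heavy chain needs. HLA-E is a non-classical class I heavy chain read by natural killer cells, HLA-DRA is the alpha chain of the class II molecule HLA-DR, and CD74 is the invariant chain that guides class II molecules through the cell. IRF1 is a transcription factor induced by interferon-gamma and by NF-kappaB that binds interferon-stimulated response elements of class I pathway genes. Erlotinib inhibits the kinase of EGFR, and T790M is known for resistance to it. Quinacrine is an acridine once used against malaria and known to lower NF-kappaB activity in tumour cells.

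Promoter stretches of 7 members are shown because they place the DNA letters that these factors read next to the genes whose levels follow. RefSeq windows of GRCh38.p14, reaching from 250 bases before to 50 bases after a gene's start, were held for 8 members. Each stretch is written 5′ to 3′ on the gene's strand, and capitals mark matches to 3 motifs searched on both strands: the core of the interferon-stimulated response element (ISRE, a GAAA and a GAAA with 2 bases of any kind between), the gamma-activated sequence (GAS, TTCNNNGAA) and the NF-kappaB consensus. The motifs were chosen after the members' promoters had been read.
IRF1, chr5:132490798-132490913, minus strand: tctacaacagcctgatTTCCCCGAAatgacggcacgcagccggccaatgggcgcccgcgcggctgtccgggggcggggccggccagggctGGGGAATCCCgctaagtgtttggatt
TAP1, chr6:32853751-32853854, minus strand: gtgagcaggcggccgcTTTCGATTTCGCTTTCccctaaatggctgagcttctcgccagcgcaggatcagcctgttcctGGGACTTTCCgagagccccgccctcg
TAPBP, chr6:33314079-33314150, minus strand: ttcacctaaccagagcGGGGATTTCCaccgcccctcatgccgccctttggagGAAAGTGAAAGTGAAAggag
B2M, chr15:44711357-44711417, plus strand: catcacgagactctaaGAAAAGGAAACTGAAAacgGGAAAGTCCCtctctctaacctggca
PSMB8, chr6:32844042-32844128, minus strand: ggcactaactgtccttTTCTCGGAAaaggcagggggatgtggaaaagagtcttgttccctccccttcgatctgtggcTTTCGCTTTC
ERAP1, chr5:96807934-96808034, minus strand: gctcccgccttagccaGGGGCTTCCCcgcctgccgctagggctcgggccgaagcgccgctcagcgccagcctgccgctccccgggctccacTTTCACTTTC
CD74, chr5:150412911-150412946, minus strand: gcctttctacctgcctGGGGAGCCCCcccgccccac

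The ISRE core lay in the windows of 5 of the 8 members (B2M, TAP1, TAPBP, PSMB8 and ERAP1), and 4.38% of the 27305 genes with a window hold it. In TAP1, TAPBP and B2M it lay as a pair of overlapping matches. The NF-kappaB consensus lay in 6 of the 8 (IRF1, TAP1, TAPBP, B2M, ERAP1 and CD74) and in 7.09% of all genes with a window. The GAS letters lay in 3 of the 8 (IRF1, PSMB8 and, in the window of another start, TAP1) and in 9.38% of all genes with a window. The window of PSMB9 held none of the 3 motifs, and DNA outside the windows was not searched. HLA-E and HLA-DRA had no window, so their promoters were not searched. A match describes letters, not binding.

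Of 9 lung epithelial markers 6 were above the filter of the test, with CDH1 at a mean of 10.3 and EPCAM at 8.54, while KRT18 (4.71), NAPSA (2.87) and KRT8 (2.81) lay below it, and no epithelial marker passed the test in any comparison. Of 9 leukocyte markers 8 were named. The mean level of these 8 was 2.78 to 2.99 on the combination arrays, 2.80 to 2.83 on the quinacrine arrays, 2.68 to 2.92 on the erlotinib arrays and 2.69 on the untreated array. The general leukocyte gene PTPRC lay between 0.63 and 1.38 on every array, below each array's median over all rows (1.39 to 1.64), while CD68 (8.57) and CSF1R (6.44) were well above it. The combination array at 6 h stood apart: its median over 5820 tested genes was 6.18, against 6.385 to 6.56 on the other 11 arrays. Many values of the members from fits that include it are given below with and without it.

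Genes with a mean of at least 5 over the 12 arrays were tested. This took in 8 of the 10 members; PSMB9 (mean 2.28) and ERAP1 (4.46) lay below and have levels only. IRF1 reached 5 on 8 arrays and passed through the arrays with quinacrine, because its level without quinacrine was mostly under 5, so counts over the tested members are a description and support nothing by themselves. Tests were made with limma across all 5820 genes, with Benjamini-Hochberg adjusted p and a threshold of 0.05.

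**Figure D1:**
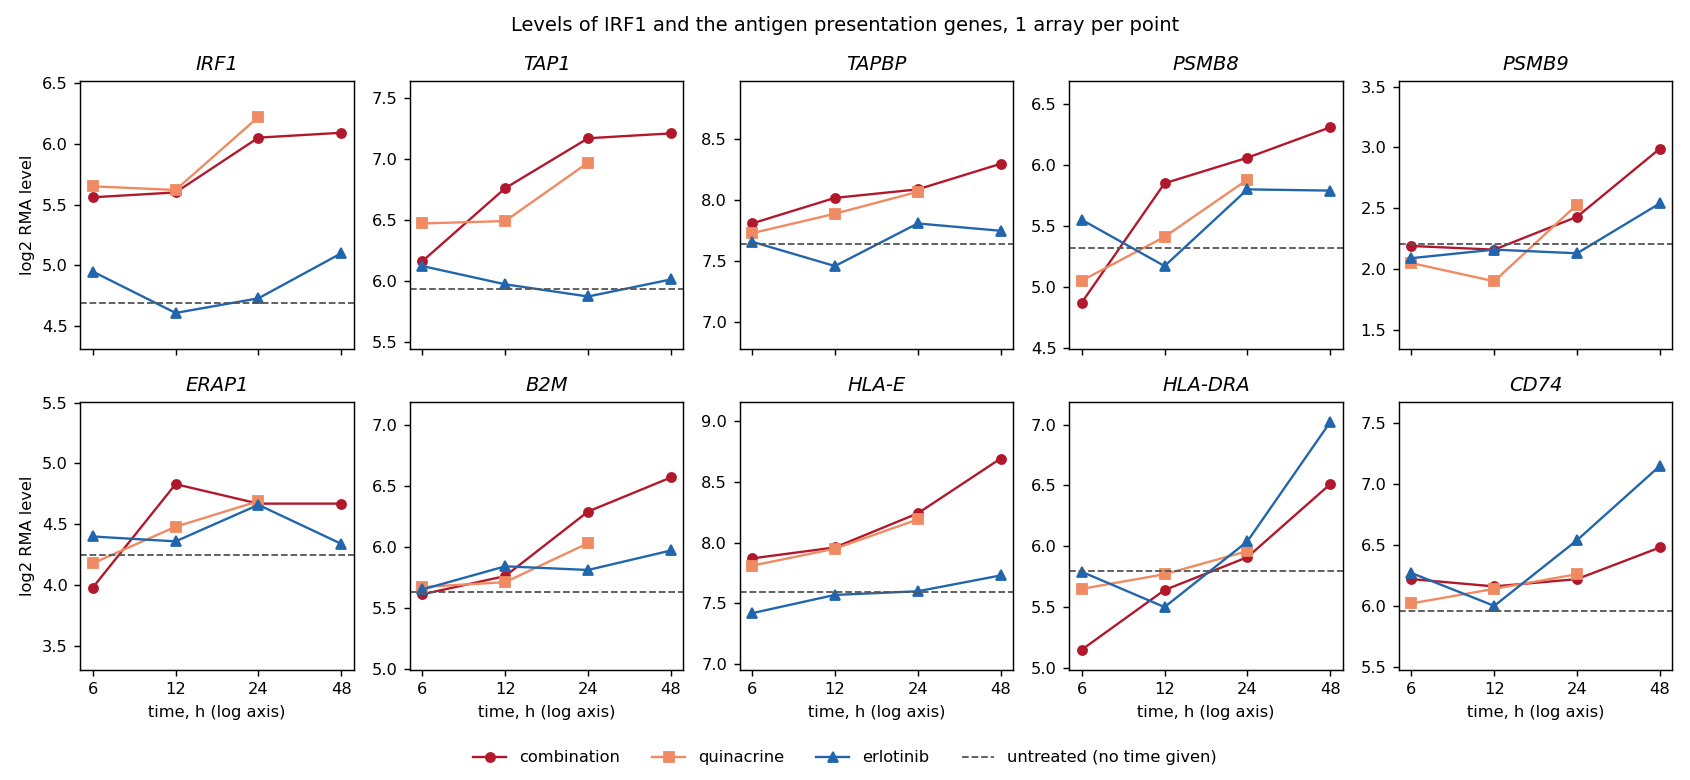
Log2 level of each of the 10 members on all 12 arrays, by treatment (combination, quinacrine, erlotinib, untreated) and time in hours; each point is 1 array. All 7 arrays with quinacrine lie above all 5 arrays without it for IRF1, TAP1 and HLA-E, and the erlotinib array at 48 h is the highest for HLA-DRA and CD74.

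IRF1 showed the clearest difference of the 10 genes: it was higher in all arrays with quinacrine, with or without erlotinib, from the first time point on. Its level was 5.56, 5.60, 6.05 and 6.09 with the combination at 6, 12, 24 and 48 h. With quinacrine alone it was 5.65, 5.62 and 6.22 at 6, 12 and 24 h, against 4.95, 4.61, 4.73 and 5.10 with erlotinib at 6, 12, 24 and 48 h and 4.69 without treatment. No array with quinacrine overlapped any array without it, and the lowest of them (5.56) lay above the highest without it (5.10). In bulk RNA a change in the share of cells with a transcript and a change in the transcript per cell cannot be told apart. The combination exceeded erlotinib by 0.98 ± 0.13 (SE; 1.97-fold; adjusted p = 0.0186, limma), and the differences in order of time were 0.61, 0.99, 1.32 and 0.99. Without the combination array at 6 h it was 1.04 (adjusted p = 0.0110, limma). Quinacrine alone exceeded erlotinib by 1.07 ± 0.15 (SE; 2.10-fold; adjusted p = 0.0198, limma), with 0.70, 1.01 and 1.49 at 6, 12 and 24 h. Without the combination array at 6 h, which is part of this fit, quinacrine exceeded erlotinib by 1.06 (adjusted p = 0.00929, limma). These comparisons share the erlotinib arrays and are not independent.

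The call of IRF1 depended on which array was left out: between combination and erlotinib it held in 5 of 11 such fits, between quinacrine and erlotinib in 6 of 11. Only the combination and erlotinib had an array at 48 h, and time was a factor in the comparisons of treated groups. In these, leaving out either 48 h array therefore gave the same fit as the 6, 12 and 24 h arrays. That fit counts more than once among the 11. Leaving out the erlotinib array at 12, 24 or 48 h or the combination array at 12, 24 or 48 h ended its call between combination and erlotinib, with differences of 0.85 to 0.99 and adjusted p of 0.0568 to 0.114 (limma). Leaving out the erlotinib array at 12 or 24 h or any quinacrine array ended its call between quinacrine and erlotinib, with differences of 0.92 to 1.16 and adjusted p of 0.0816 to 0.144 (limma). With no filter on the level, the adjusted p was 0.0469 for the combination and 0.0634 for quinacrine (limma).

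Among the class I molecules, HLA-E followed the same division. It was at 7.87, 7.96, 8.24 and 8.69 with the combination, at 7.81, 7.95 and 8.19 with quinacrine, at 7.42, 7.57, 7.60 and 7.73 with erlotinib and at 7.59 without treatment. Every array with quinacrine again lay above every array without it, by a narrower margin than for IRF1, and the combination array at 48 h was the highest. The combination exceeded erlotinib by 0.61 ± 0.11 (SE; 1.53-fold; adjusted p = 0.0328, limma), and by 0.64 without the combination array at 6 h (adjusted p = 0.0308, limma). Quinacrine alone exceeded erlotinib by 0.51 ± 0.13 (SE), which did not pass (adjusted p = 0.0876, limma). It did not pass without the combination array at 6 h either (0.51, adjusted p = 0.0560, limma). The call for HLA-E was lost without the erlotinib array at 12, 24 or 48 h, any quinacrine array, or the combination array at 12, 24 or 48 h, with differences of 0.49 to 0.67 and adjusted p of 0.0602 to 0.144 (limma). HLA-E had 11 rows holding 3 different sets of values, whose difference between combination and erlotinib ran from -0.13 to 0.61. The mean over its rows gave 0.33 (adjusted p = 0.260, limma), so the rows of this gene disagree.

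B2M, the partner of HLA-E, did not pass, and its larger differences lay at the later times. Its level was 5.61, 5.76, 6.29 and 6.57 with the combination, 5.67, 5.71 and 6.03 with quinacrine, 5.65, 5.84, 5.81 and 5.97 with erlotinib and 5.63 without treatment. At 6 and 12 h the combination and erlotinib differed by -0.04 and -0.08, and at 24 and 48 h by 0.48 and 0.60. The median of all tested genes was -0.27 and 0.14 at 6 and 12 h, and 0.04 and -0.02 at 24 and 48 h. Over the 4 times the difference was 0.24 (95% interval -0.06 to 0.54; adjusted p = 0.350, limma), and groups overlapped. It was 0.32 without the combination array at 6 h, and 0.12 without the 48 h array of either group.

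The peptide transporter TAP1 and its partner TAPBP lay above erlotinib with the combination at all 4 times and with quinacrine at all 3, but neither passed the test over all arrays. TAP1 was at 6.16, 6.76, 7.17 and 7.21 with the combination and at 6.47, 6.49 and 6.97 with quinacrine, against 6.12, 5.97, 5.87 and 6.01 with erlotinib and 5.93 without treatment. The 7 arrays with quinacrine lay above the other 5, but at 6 h the combination exceeded erlotinib by no more than 0.04, and the later differences were 0.79, 1.30 and 1.20. The median difference of all tested genes on these pairs was -0.27 at 6 h and 0.14, 0.04 and -0.02 at 12, 24 and 48 h. The combination exceeded erlotinib by 0.83 ± 0.19 (SE; 1.78-fold), short of the threshold (adjusted p = 0.0554, limma). Without the combination array at 6 h the difference was 1.04 and passed (adjusted p = 0.0130, limma), and without the erlotinib array at 6 h it was 1.03 (adjusted p = 0.0137, limma). Quinacrine alone exceeded erlotinib by 0.72 ± 0.22 (SE; adjusted p = 0.134, limma); this passed without the erlotinib array at 6 h (0.95, adjusted p = 0.0312, limma) or the combination array at 6 h (0.68, adjusted p = 0.0425, limma).

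TAPBP was at 7.81, 8.02, 8.09 and 8.30 with the combination and at 7.73, 7.89 and 8.07 with quinacrine, against 7.66, 7.46, 7.81 and 7.75 with erlotinib and 7.64 without treatment. Its groups met at the edge, where the quinacrine array at 6 h lay below the erlotinib arrays at 24 and 48 h. The combination differed from erlotinib by 0.385 ± 0.10 (SE; adjusted p = 0.0879, limma) and quinacrine by 0.28 ± 0.12 (SE; adjusted p = 0.258, limma). The combination's difference was 0.43 without its own array at 6 h (adjusted p = 0.0663, limma), and 0.46 without the erlotinib array at 6 h, where it passed (adjusted p = 0.0421, limma). Quinacrine's difference was 0.27 without the combination array at 6 h (adjusted p = 0.199, limma).

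Of the immunoproteasome subunits and the trimming enzyme, PSMB8 did not pass and PSMB9 and ERAP1 were not tested. PSMB8 was at 4.87, 5.85, 6.06 and 6.31 with the combination, at 5.05, 5.41 and 5.88 with quinacrine, at 5.55, 5.17, 5.80 and 5.79 with erlotinib and at 5.32 without treatment. At 6 h the combination lay 0.68 below erlotinib, a difference of -0.68 against -0.27 for the median of all tested genes on this pair of arrays, and at 12, 24 and 48 h it lay 0.68, 0.26 and 0.52 above. Over all times the difference was 0.195 (95% interval -0.26 to 0.65; adjusted p = 0.632, limma). It was 0.41 without the combination array at 6 h and 0.43 without the erlotinib array at 6 h. It was 0.07 without the 12 h array and 0.09 without the 48 h array of either group. PSMB9 lay near the middle of the named genes, between 1.90 and 2.99 on all 12 arrays, and its highest array was the combination at 48 h (2.99). ERAP1 lay between 3.98 and 4.83, with overlapping groups and its lowest and highest arrays both in the combination, at 6 and 12 h. The combination minus erlotinib was 0.21 for PSMB9 and 0.10 for ERAP1, and 0.23 for both without the combination array at 6 h.

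The class II members HLA-DRA and CD74 had their highest level on the erlotinib array at 48 h, not on an array with quinacrine. HLA-DRA was at 5.15, 5.64, 5.91 and 6.51 with the combination and at 5.65, 5.77 and 5.96 with quinacrine, against 5.79, 5.50, 6.04 and 7.02 with erlotinib and 5.80 without treatment. CD74 was at 6.22, 6.16, 6.22 and 6.48 with the combination and at 6.02, 6.14 and 6.26 with quinacrine, against 6.27, 6.00, 6.54 and 7.15 with erlotinib and 5.96 without treatment. Both were at their highest at 48 h in the combination as well, but 0.51 and 0.67 below erlotinib at that time. The combination differed from erlotinib by -0.285 for HLA-DRA (95% interval -0.60 to 0.03; adjusted p = 0.284, limma) and by -0.22 for CD74 (95% interval -0.54 to 0.10; adjusted p = 0.418, limma). Leaving out the combination array at 6 h gave -0.18 and -0.29. Without the 48 h array of either group CD74 differed by -0.07, and without the erlotinib array at 12 h by -0.34. Of 21 named genes of a class II pathway list, 5 (23.8%) also had their highest level on the erlotinib array at 48 h (HLA-DMA, HLA-DMB, HLA-DPA1, HLA-DPB1 and CTSD), as had 14.9% of all tested genes. Only 7 of the 21 were tested, so the shares of the list and of all tested genes are over unlike sets. Another 3 (CTSS, CTSB and LGMN; 14.3%) were highest with the combination at 48 h, against 12.6% of all tested genes. With quinacrine at 24 h 2 (CIITA and IFI30; 9.52%) were highest, against 11.1% of all tested genes. The list named 8 HLA-D genes, and only 4 of these were highest on the erlotinib array at 48 h. All HLA-D genes given here were named after their values were seen. HLA-DQA1, the only tested gene of the 8, lay at 5.32 on that array, against 5.62 without treatment. HLA-DRB1 lay at 0.34 there, its lowest on the 12 arrays, HLA-DQB1 at 1.63 and HLA-DOA at 1.19. HLA-DMA, HLA-DMB, HLA-DPA1 and HLA-DPB1 lay at 5.67, 4.83, 4.36 and 4.65 on the same array. The means of these 4 over all arrays were below the filter, and they were not tested. CIITA, the coactivator of class II genes, was at 5.30 with erlotinib at 48 h, close to 5.32 with the combination and 5.34 with quinacrine at 24 h. It was also untested.

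Counted together, 2 of the 8 tested members (IRF1 and HLA-E) were higher with the combination than with erlotinib, none was lower and 6 did not pass, against 3.64% of all tested genes called in that comparison and 1.43% called higher. Without the combination array at 6 h the count was 3, with TAP1 added, against 5.05% of all tested genes called and 3.04% called higher, and without the erlotinib array at 6 h it was 4, with TAPBP as well, against 5.53% called and 3.52% called higher. It was 1 (IRF1) without any 1 of the quinacrine arrays and 0 without the erlotinib or combination array at 12, 24 or 48 h. Between quinacrine alone and erlotinib 1 of the 8 (IRF1) was higher, against 1.13% of all tested genes called and 0.515% called higher. That count was 2, with TAP1 added, without either the combination or the erlotinib array at 6 h (4.95% and 4.42% of all tested genes called), and 0 without the erlotinib array at 12 or 24 h or any 1 of the quinacrine arrays. The 3 members whose arrays with and without quinacrine did not overlap stand against 2.34% of all tested genes with the arrays with quinacrine higher and 6.82% in either direction. The median difference between combination and erlotinib was 0.31 over the 8 tested members and -0.03 over all tested genes, and 0.42 and 0.04 without the combination array at 6 h.

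**Figure D2:**
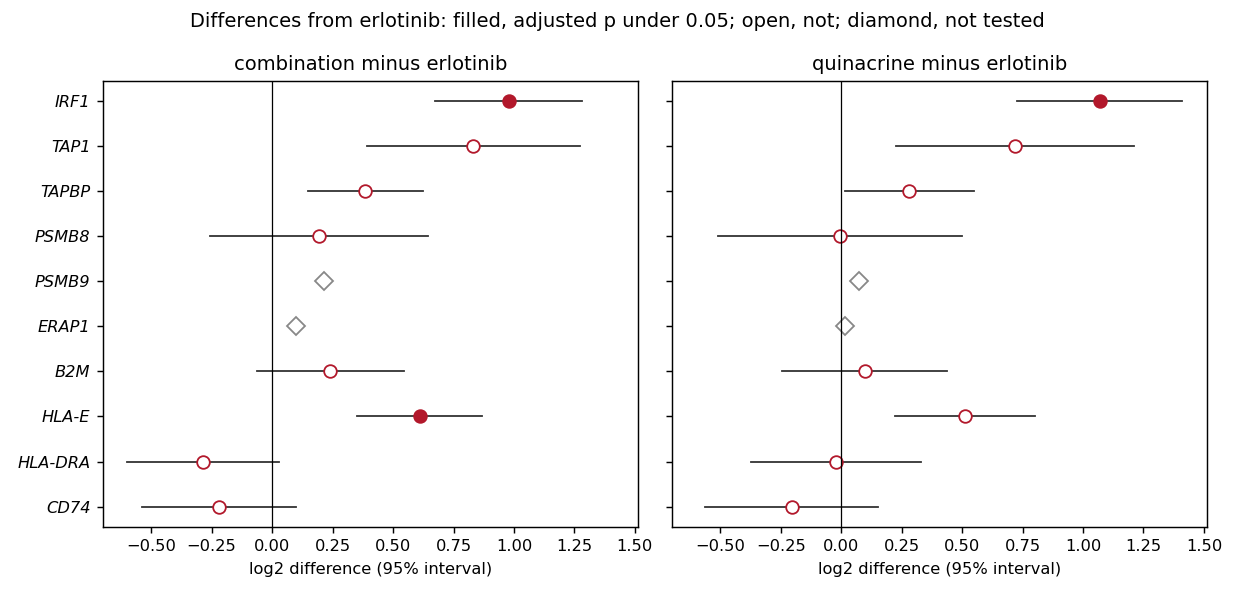
Log2 differences of the members, combination minus erlotinib and quinacrine minus erlotinib, with 95% intervals from limma for the 8 tested members (not adjusted for the number of genes) and no interval for PSMB9 and ERAP1. The intervals of IRF1, HLA-E, TAP1 and TAPBP lie to the right of 0 in both. The points of B2M, PSMB9 and ERAP1 also lie right of 0 in both, that of PSMB8 for the combination only. The points of HLA-DRA and CD74 lie left of 0 in both. The intervals of B2M, PSMB8, HLA-DRA and CD74 cross 0.

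Adding erlotinib to quinacrine was asked by setting the combination against quinacrine alone. None of the 8 members passed, all with an adjusted p of 1 (limma), and neither did any of the 5820 genes (0.0%; 47 genes had an unadjusted p under 0.05). IRF1 differed by -0.09 (95% interval -0.43 to 0.25) and HLA-E by 0.10 (95% interval -0.19 to 0.39). The widest interval was that of PSMB8, at 0.20 (-0.30 to 0.70). HLA-DRA lay below quinacrine in the combination at all 3 shared times, with differences of -0.50, -0.13 and -0.05 and a fitted difference of -0.26 (95% interval -0.61 to 0.09). No member passed without the combination array at 6 h either: IRF1 differed by -0.02, HLA-E by 0.14, PSMB8 by 0.45 and HLA-DRA by -0.15.

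Against the single untreated array no member passed in any of the 3 treatments; 0.0515% of all tested genes were called for the combination (3 genes), 0.0344% for quinacrine (2 genes) and 0.0% for erlotinib (0 genes; 144 had an unadjusted p under 0.05). This fit assumes that the untreated array varies like the treated ones, and change with time counts as spread. IRF1 lay 1.135 ± 0.28 (SE; adjusted p = 0.259, limma) above the untreated level with the combination and 1.14 ± 0.29 (SE; adjusted p = 0.245, limma) above it with quinacrine. Leaving out the combination array at 6 h gave 1.22 (adjusted p = 0.0962, limma) and 1.14 (adjusted p = 0.110, limma). With erlotinib it lay 0.16 ± 0.28 (SE) above it (95% interval -0.47 to 0.78; adjusted p = 0.999, limma). CD74 had the largest difference of the 8 members between erlotinib and untreated, 0.53 (95% interval -0.17 to 1.23). This is the mean of 0.31, 0.04, 0.58 and 1.19 at 6, 12, 24 and 48 h.

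Change with time was described by a slope per doubling of time, 1 for the arrays with quinacrine (combination and quinacrine alone together) and 1 for the erlotinib arrays. The slope of TAP1 was 0.33 with quinacrine and -0.04 with erlotinib, a difference of 0.37 ± 0.09 (SE; adjusted p = 0.117, limma), and 0.28 without the combination array at 6 h. The slope of PSMB8 was 0.44 with quinacrine and 0.135 with erlotinib, and that of B2M was 0.295 with quinacrine and 0.09 with erlotinib. For CD74 the order was the other way, 0.09 with quinacrine and 0.32 with erlotinib, and HLA-DRA had high slopes in both, 0.355 with quinacrine and 0.42 with erlotinib. The slope difference was 0.31 for PSMB8, 0.20 for B2M, -0.22 for CD74 and -0.07 for HLA-DRA. Without the combination array at 6 h these were 0.19, 0.20, -0.18 and -0.13. None of the 8 members passed for the difference of slopes, nor did any of the 5820 genes (0.0%; 929 had an unadjusted p under 0.05). The difference was above 0 for 6 of the 8 members and for 69.2% of all tested genes, whose median was 0.07, and 0.02 without the combination array at 6 h. Without the erlotinib array at 6 h the difference of IRF1 was -0.018, and on the 6, 12 and 24 h arrays that of HLA-DRA was 0.14.

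**Figure D3:**
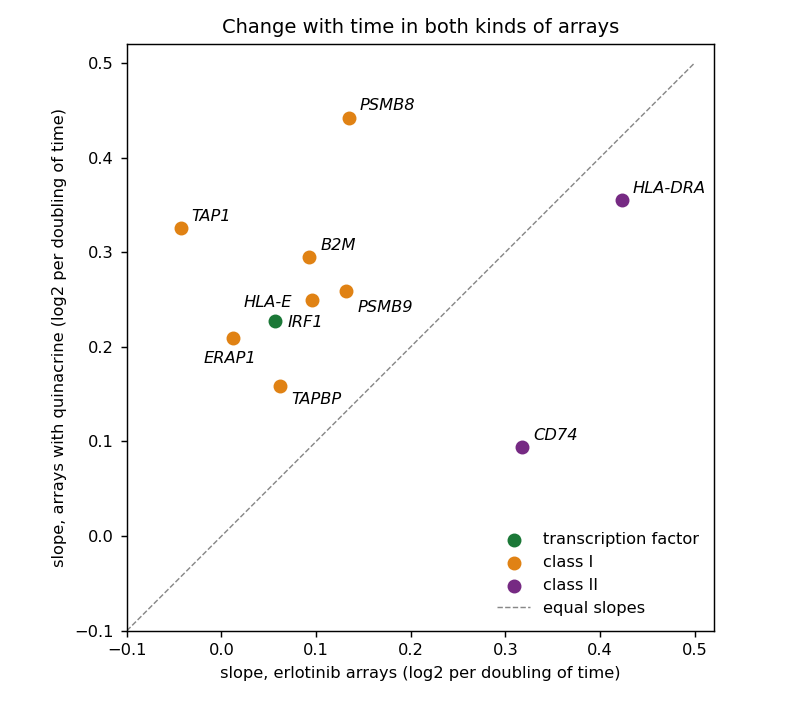
Slope of each member in log2 per doubling of time, on the 7 arrays with quinacrine (vertical axis) and on the 4 erlotinib arrays (horizontal axis); the dashed line marks equal slopes. IRF1 and the class I genes lie above the line, HLA-DRA and CD74 below it, with 69.2% of all tested genes above; none of the 8 tested differences passed, IRF1 lies below the line without the erlotinib array at 6 h and HLA-DRA above it on the 6, 12 and 24 h arrays.

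The wider pathway was read from 4 lists. Of 22 class I pathway genes 14 were tested: 2 were higher with the combination than with erlotinib (MICB and HLA-C), none was lower and 12 did not pass, with a median of 0.22, against 3.64% of all tested genes called, 1.43% called higher and a median of -0.03. Without the combination array at 6 h, PSMB10, another immunoproteasome subunit named after its value was seen, passed as well and the median was 0.34, against 5.05% of all tested genes called. MICB, a stress-induced ligand of the receptor NKG2D that presents no peptide, was at 7.80, 7.86, 7.56 and 7.77 with the combination and 8.23, 7.95 and 7.68 with quinacrine, against 7.10, 6.84, 6.73 and 6.89 with erlotinib and 7.18 without treatment. The combination exceeded erlotinib by 0.86 ± 0.10 (SE; adjusted p = 0.00865, limma) and quinacrine did so by 1.07 (adjusted p = 0.00581, limma). These were 0.92 and 1.06 without the combination array at 6 h. The call for the combination was lost without its array at 24 h (0.85, adjusted p = 0.0827, limma), that for quinacrine without any 1 quinacrine array (1.00 to 1.12, adjusted p of 0.0554 to 0.0661, limma). HLA-C, a classical class I heavy chain, was higher by 0.53 ± 0.10 (SE; adjusted p = 0.0337, limma) with the combination and by 0.54 (adjusted p = 0.0641, limma) with quinacrine. Its call remained without the erlotinib or the combination array at 6 h and was lost without each of the other 9 arrays (0.45 to 0.58, adjusted p of 0.0627 to 0.146, limma). Between quinacrine and erlotinib it passed without the combination array at 6 h (0.54, adjusted p = 0.0413, limma) or the erlotinib array at 6 h (0.59, adjusted p = 0.0438, limma). HLA genes have near-identical copies, and whether their probes tell them apart was not tested.

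Of 21 genes of the IRF and STAT pathway, beside IRF1, 11 were tested: 1 was higher with the combination (IFNGR2), none was lower and 10 did not pass, with a median of 0.33, beside the same shares of all tested genes. The count was again 1 (IFNGR2) and the median 0.37 without the combination array at 6 h. IFNGR2, a chain of the interferon-gamma receptor, was at 6.44, 5.91, 6.04 and 6.07 with the combination and 6.36, 5.94 and 6.06 with quinacrine, against 5.46, 5.15, 5.06 and 5.24 with erlotinib and 5.38 without treatment. The combination exceeded erlotinib by 0.89 ± 0.09 (SE; adjusted p = 0.00544, limma) and quinacrine did so by 0.89 (adjusted p = 0.00785, limma). These were 0.86 and 0.89 without the combination array at 6 h. The call for the combination was lost without its array at 24 h (0.875, adjusted p = 0.0565, limma), that for quinacrine without the erlotinib array at 24 h or any 1 quinacrine array (0.85 to 0.90, adjusted p of 0.0695 to 0.0995, limma). IRF3, a factor of the response to viral nucleic acid, was higher with quinacrine by 0.71 (adjusted p = 0.0474, limma), a call that was lost without any 1 array other than the erlotinib and combination arrays at 6 h (0.60 to 0.82, adjusted p of 0.0671 to 0.292, limma), while the combination differed from erlotinib by 0.33 (adjusted p = 0.162, limma).

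Of 22 class II pathway genes 7 were tested and none passed between combination and erlotinib (median 0.06, and 0.29 without the combination array at 6 h); IFI30, a thiol reductase of antigen processing, differed by 0.45 (adjusted p = 0.0848, limma; 0.53 and 0.0440 without the combination array at 6 h, 0.57 and 0.0206 without the erlotinib array at 6 h) and NFYA, a subunit of a factor at class II promoters, by -0.55 (adjusted p = 0.209, limma). Of 14 genes of the constitutive proteasome 12 were tested and none passed (median 0.04), with PSMA3 at -0.19 and PSMB3 at 0.18 (both adjusted p = 0.296, limma). Between quinacrine and erlotinib, 1 class I gene (MICB), 2 IRF and STAT genes (IFNGR2 and IRF3) and none of the class II and constitutive proteasome genes passed, all higher, against 1.13% of all tested genes called. Without the combination array at 6 h, 3 class I genes were higher (MICB, HLA-C and PSMB10) and 1 was lower (HSPA5, an endoplasmic reticulum chaperone), 1 class II gene (IFI30) and 3 IRF and STAT genes (IFNGR2, IRF3 and STAT3) were higher, and no constitutive proteasome gene passed, against 4.95% of all tested genes called. HSPA5 was named after its value was seen.

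**Figure D4:**
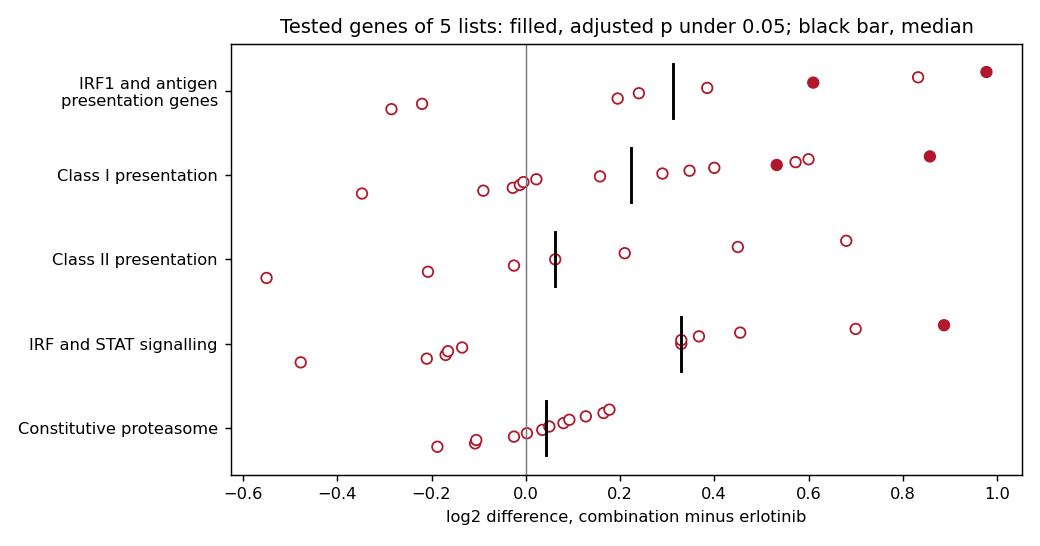
Log2 difference, combination minus erlotinib, of every tested gene of the members and of the 4 lists, with filled points for genes past the threshold. MICB, HLA-C and IFNGR2 passed beside IRF1 and HLA-E, and no gene of the class II or constitutive proteasome list did.

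The genes most like a member over the 12 arrays were taken by Pearson r over all tested genes, as a description, since the 12 arrays share treatments and times. STAT3 (0.967), CXCL8 (0.949) and LSR (0.946) were most like IRF1. IFRD1 (0.982), TST (0.966) and CCN3 (0.962) were most like TAP1. For HLA-DRA they were NUP210 (0.938), MUC16 (0.919) and MYO6 (0.917). CXCL8, the chemokine interleukin-8, averaged 5.75 with the combination and 5.55 with quinacrine, against 4.39 with erlotinib and 4.46 without treatment. CCN3 averaged 6.23 and 5.85, against 4.87 and 4.93. Like IRF1, both passed the filter of 5 through the arrays with quinacrine. The filter thus favoured genes that are high with quinacrine, and the likeness of CXCL8 and CCN3 to a member supports nothing by itself. STAT3 was also in the IRF and STAT list, where its difference between combination and erlotinib was 0.37 (adjusted p = 0.0625, limma; 0.41 and 0.0496 without the erlotinib array at 6 h).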

How the data were processed

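Per the series' design text and the submitters' processing notes, the authors made log2 values by RMA in Affymetrix Expression Console 1.30, and took probe set annotation from hg19 files. RMA includes a background correction and a quantile step, but the deposited values did not share a single distribution. The median over all rows was 1.39 (quinacrine at 24 h) to 1.64 (combination at 6 h), and the interquartile range was 2.88 and 2.04 on these arrays. The deposited log2 values were used unchanged. Of 53617 rows, 23871 had 1 gene symbol, 1842 several and 27904 none; the Entrez IDs of 22572 named rows were found in current RefSeq. Rows with several genes were not used.

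Tests used limma 3.58.1 in R 4.3.3 (lmFit, eBayes) on 5820 genes with a mean of at least 5, with Benjamini-Hochberg adjustment over all of them. Treated groups were compared with each other on 11 arrays, in a model of additive treatment and time (5 residual degrees of freedom, which measure departure from additivity, not replicate error). Comparisons with the untreated array used group means of 12 arrays (8 degrees of freedom), and slopes were fitted on the 11 treated arrays (6 degrees of freedom). The number of arrays limits the precision. The procedure was tested on simulated arrays.

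The members, lists and rule for named genes were chosen with earlier results of these data known. The rule named the 10 members; the genes of each list past the threshold, up to 4 per direction, or otherwise the 2 of smallest p; and the 3 genes most like IRF1, TAP1 and HLA-DRA. Genes named otherwise are marked. Alternatives changed the filter, rows, scaling, array weights, prior variance, arrays and times. Promoter windows are RefSeq's, on GRCh38.p14.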

Additional observations from a re-analysis of the deposited data

Results flagged for a closer look

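PSMB9 on the erlotinib arrays had 1 array far from the others: the level at 48 h was 2.54, against 2.09 to 2.16 at 6, 12 and 24 h, and the gap took 0.844 of the range of the 4 arrays. In all, 20 groups were looked at, the combination and the erlotinib arrays of each of 10 members, and chance flags about 1 in 20. These arrays differ in time, so the spread of a group includes change with time.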

How the results depend on the processing

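Between combination and erlotinib, where 2 members were called, 1 was called with no filter and 1 with the mean over a gene's rows (IRF1 in both). The count was 0 with all rows of the table, 0 on the 6, 12 and 24 h arrays and 0 in a fit of only the 2 groups. It was 4 (HLA-E, IRF1, TAP1 and TAPBP) with cyclic loess, with median centring, with array weights and with a prior variance that follows the mean level. Leaving out 1 array gave 0 to 4. Between quinacrine and erlotinib, where 1 was called, the count was 0 with no filter, 0 with all rows, 0 with only the 2 groups, 2 with cyclic loess, median centring or a prior variance with a trend, and 3 with array weights; leaving out 1 array gave 0 to 2. Array weights also gave 4 members for combination against untreated and 1 (IRF1) for quinacrine against untreated, where all other alternatives gave 0; with these weights 13.9% and 8.49% of all tested genes were called, against 0.0515% and 0.0344% without them, and the iteration that sets the weights stopped before it converged. Some alternatives tested more rows or used fewer arrays, and the cause of the changes in count was not tested.

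Over all tested genes, the 212 calls between combination and erlotinib (83 higher, 129 lower) were 51 with no filter, 9 with all rows, 485 with cyclic loess (220 higher, 265 lower), 439 with median centring (223 higher, 216 lower), 380 with array weights (202 higher, 178 lower), 34 on the 6, 12 and 24 h arrays and 6 with only the 2 groups. The 66 between quinacrine and erlotinib were 28, 3, 334, 293, 682, 41 and 58 under the same alternatives and 178 with a prior variance with a trend. Between combination and erlotinib they were 322 (205 higher, 117 lower) without the erlotinib array at 6 h, 294 (177 higher, 117 lower) without the combination array at 6 h, and 6 (without combination at 24 h) to 66 without 1 of the other 9 arrays. Between quinacrine and erlotinib they were 257 (186 higher, 71 lower), 288 (127 higher, 161 lower), and 0 (without quinacrine at 24 h; 701 with an unadjusted p under 0.05) to 41 without the same arrays.

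Signs turned for the following values, none of them called. Between quinacrine and erlotinib, PSMB8 was 0.062 with array weights, and HLA-DRA was 0.017 on the 6, 12 and 24 h arrays and 0.017 with only the 2 groups. Between combination and quinacrine, HLA-E was -0.10 as the mean over its rows, and CD74 was 0.028 with cyclic loess, 0.023 with median centring and 0.06 on the 6, 12 and 24 h arrays. Against untreated, HLA-DRA in the combination was -0.000777 with cyclic loess and -0.23 on the 6, 12 and 24 h arrays, in quinacrine 0.000952 as the mean over its rows, and in erlotinib -0.023 on the 6, 12 and 24 h arrays, where HLA-E in erlotinib was 0.061 as the mean over its rows. The slope difference of HLA-DRA was 0.14 on the 6, 12 and 24 h arrays. With 1 array left out, ranges that crossed 0 were -0.15 to 0.27 (PSMB8) and -0.16 to 0.074 (HLA-DRA) between quinacrine and erlotinib, -0.18 to 0.034 (IRF1) and -0.10 to 0.0625 (CD74) between combination and quinacrine, -0.23 to 0.22 (HLA-DRA) for combination against untreated, -0.09 to 0.33 (PSMB8) and -0.09 to 0.065 (HLA-DRA) for quinacrine against untreated, -0.017 to 0.10 (TAPBP), -0.06 to 0.043 (HLA-E) and -0.023 to 0.48 (HLA-DRA) for erlotinib against untreated, and -0.018 to 0.34 (IRF1) and -0.41 to 0.23 (HLA-DRA) for the slope difference. Pairing by time was part of the fits: time was a factor in the comparisons of treated groups, and the fit of only the 2 groups was paired by time (IRF1 adjusted p = 0.103 for combination and 0.0636 for quinacrine against erlotinib, limma). No paired analysis by replicate number was possible because the labels give no such numbers.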
